A study of Mus musculus with 8 samples.

Results

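Described here are 10 genes of mouse chromosome 5: the homeobox gene Gsx2 and the 9 genes Rasl11b, Scfd2, Fip1l1, Chic2, Gm19583, Pdgfra, Kit, Srd5a3 and Tmem165, which lie on either side of it. They were given by name, in their order along the chromosome, and are 10 of the 12843 genes in the authors' deposited table. They were chosen by position and by the RPKM difference between genotypes in these libraries, which was known when they were named. Their values between genotypes are therefore given as a description, with no test, while genes around them and genes related to them were tested.

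RNA was sequenced from the lateral ganglionic eminence (LGE), the embryonic forebrain region that forms the striatum, at E12.5. The tested embryos carried the alleles Gsx2EGFP and Gsx2RA together (genotype Gsx2EGFP/Gsx2RA, 4 libraries) and are labelled null for Gsx2. The embryos they were set against are labelled wild type (WT, 4 libraries). Parents carried 1 changed allele each, Gsx2RA/+ or Gsx2EGFP/+, and tails were used for genotyping, per the labels' protocols. Both alleles are germline changes, so they were present in all cells of the embryo. No label says which bases of Gsx2 each allele keeps. No label says whether tissue of several embryos was pooled in a library. The adjusted p-values below weigh each difference against the spread between libraries, which need not be the spread between embryos. Libraries are named by the numbers of their columns: 5, 6, 11 and 12 for the null-labelled libraries and 1, 2, 7 and 8 for WT.

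Gsx2 encodes a homeodomain transcription factor of neural progenitors in the ventral telencephalon, where it is known to set LGE identity against that of the pallium. Pdgfra and Kit encode related receptor tyrosine kinases: PDGFRA binds platelet-derived growth factors, and KIT binds stem cell factor, the product of Kitl. In the developing brain Pdgfra is best known as a marker of oligodendrocyte precursors, and Kit is a marker of mast cells and melanoblasts outside it. In human eosinophilic neoplasms a deletion on the matching stretch of the human genome joins FIP1L1 to PDGFRA.

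In GENCODE M21 (GRCm38, coordinates counted from 1), the 10 genes span chr5:74195286-76209245. Gsx2 lies at chr5:75075601-75077893 on the plus strand. Its nearest neighbour among the 10 on the lower side is Chic2 (chr5:74997988-75044774, minus strand), 30.8 kb away. On the upper side the long intergenic RNA gene Gm19583 (chr5:75110321-75147107) begins 32.4 kb past the end of Gsx2, and Pdgfra (chr5:75152292-75198215) begins 5.2 kb past the end of Gm19583. Gsx2, Gm19583 and Pdgfra are all on the plus strand and do not overlap. Kit (chr5:75574916-75656722, plus strand) follows 376.7 kb past Pdgfra.

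RefSeq promoter sequences (build GRCm38.p6) were matched for 10 of 10 genes, from 250 bases before each start to the first 30 from it on. Those of Gsx2, Gm19583 and Pdgfra are shown, as these genes had the 3 largest differences between genotypes among the 10. All 3 run 5′ to 3′ on the plus strand, at chr5:75075351-75075630 for Gsx2, chr5:75110071-75110350 for Gm19583 and chr5:75152001-75152280 for Pdgfra. Capitals mark ATTA or its reverse complement TAAT, the short core that many homeodomains bind.
Gsx2: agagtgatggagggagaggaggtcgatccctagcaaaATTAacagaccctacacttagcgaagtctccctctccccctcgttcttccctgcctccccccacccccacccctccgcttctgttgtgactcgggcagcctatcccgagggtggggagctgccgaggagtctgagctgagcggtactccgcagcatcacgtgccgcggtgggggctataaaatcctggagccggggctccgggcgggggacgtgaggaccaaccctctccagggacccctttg
Gm19583: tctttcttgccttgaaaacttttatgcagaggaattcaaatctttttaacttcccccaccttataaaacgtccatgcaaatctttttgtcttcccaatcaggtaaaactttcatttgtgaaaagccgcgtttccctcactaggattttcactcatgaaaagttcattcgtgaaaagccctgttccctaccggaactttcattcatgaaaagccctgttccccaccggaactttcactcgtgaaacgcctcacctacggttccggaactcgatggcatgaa
Pdgfra: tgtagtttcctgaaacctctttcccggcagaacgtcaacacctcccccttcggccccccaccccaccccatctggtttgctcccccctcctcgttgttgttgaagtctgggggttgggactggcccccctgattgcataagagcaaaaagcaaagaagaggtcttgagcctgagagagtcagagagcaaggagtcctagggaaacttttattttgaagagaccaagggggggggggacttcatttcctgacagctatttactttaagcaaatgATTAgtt
The Gsx2 stretch holds 1 such core, at position -213 counted from the start, the Pdgfra stretch holds 1 just after the start, and the Gm19583 stretch holds none. On both strands, 5 of the 10 genes had a core in a promoter, against 56.8% of all 32851 RefSeq promoters of the same length. The longer letters TAATTA were in 0 of the 10 genes' promoters and in 5.09% of all promoters. TATAAA, searched on both strands, was in the stretches of Gsx2 and Gm19583 and in 13.1% of all promoters. GC content was 63.6% for Gsx2, 42.5% for Gm19583 and 51.4% for Pdgfra, beside a median of 52.5% over all promoters. These matches describe the letters in these windows and say nothing of binding.

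RNA levels are given as RPKM, reads scaled by gene model length and library total, as the authors deposited them. The whole reads behind them were recovered from the steps of the values, and library totals behind the scaling were 21440698 to 23433995 reads. Of these reads, 73.0% to 76.9% in null-labelled libraries and 74.7% to 76.4% in WT libraries fell in listed genes. As a check of the tissue, 8 of 9 genes fixed for the LGE fell in null-labelled libraries by the fit described next, and the summed level of all 9 was 287 to 340 RPKM there, against 825 to 943 RPKM in WT.

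Differences are null-labelled minus WT means of log2(RPKM + 1) from limma, fitted over 11395 genes, each with its standard error (SE). Of the 10 genes 6 had every null-labelled library above every WT library: Rasl11b, Chic2, Gsx2, Gm19583, Pdgfra and Kit. Fip1l1 had every null-labelled library below every WT library, and the genotypes overlapped for Scfd2, Srd5a3 and Tmem165. Among all tested genes, 30.9% had genotypes that did not overlap, 14.5% with the null-labelled libraries higher and 16.4% with them lower. The fit called the same 7 genes, at an adjusted p threshold of 0.05, where it called 28.5% of all tested genes. With a log2 difference of at least 1 as well, 3 of the 10 genes were called (Gsx2, Gm19583 and Pdgfra), beside 1.83% of all tested genes. As this contrast was known when the 10 genes were named, nothing is read from these counts. The median difference was 0.45 over the 10 genes and -0.01 over all tested genes.

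**Figure D1:**
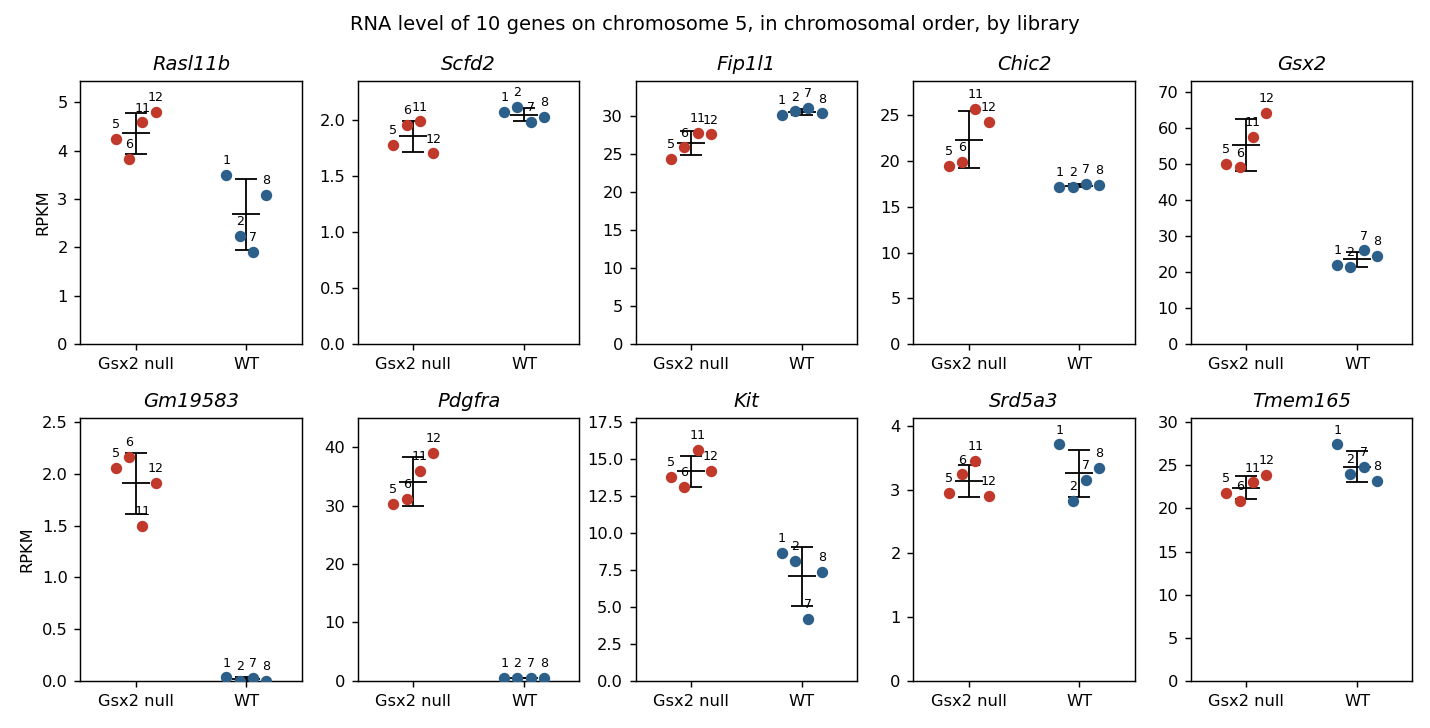
RPKM of each of the 10 genes in each library (points), with the mean and SD of each genotype; null-labelled libraries stand left of WT libraries and the scale is given on each axis. Pdgfra lies between 30.3 and 39.0 RPKM in null-labelled libraries and between 0.473 and 0.577 RPKM in WT libraries, while the genotypes overlap for Scfd2, Srd5a3 and Tmem165.

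Gsx2, the targeted gene, had more RNA counted in the libraries labelled null than in those labelled WT. Its level was 50.04, 49.1, 57.6 and 64.2 RPKM in null-labelled libraries 5, 6, 11 and 12, against 22.1, 21.4, 26.0 and 24.6 RPKM in WT libraries 1, 2, 7 and 8. The lowest null-labelled library was thus above the highest WT library. The means were 55.2 ± 7.11 RPKM in null-labelled libraries and 23.5 ± 2.16 RPKM in WT libraries (SD, n = 4 each), a ratio of 2.35 and a log2 difference of 1.19 ± 0.09 (SE). Behind these values were 3617 reads over the 4 null-labelled libraries and 1544 reads over the 4 WT libraries. In bulk tissue, a difference in the number of cells that hold an RNA and a difference in RNA per cell cannot be told apart. The reads counted for Gsx2 were thus more, not fewer, in the libraries labelled null. They do not show which parts of the normal Gsx2 RNA were present, or what protein the counted RNA could encode.

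The length that the authors' RPKM used for each gene was recovered from the read steps and the library totals, to whole bases. For Gsx2 it was 737 bp, 44.3% of the 1665 bp that its annotated exons cover together. The annotated exon 1 of Gsx2 (chr5:75075601-75076337) is 737 bp long, the same number, and exon 2 (chr5:75076966-75077893), which encodes the homeodomain, is 928 bp. Among 10150 genes whose annotated transcripts all have several exons, the length equalled a transcript or the union of exons for 1306 (12.9%). It equalled that of a single exon and of nothing longer for only 3 genes (0.0296%), Gsx2, Mrps18c and Ddit3. An equal length does not itself show where reads were counted, and no source used here gives the annotation the authors used. Whether the counted RNA holds exon 2 cannot be told from this table.

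**Figure D2:**
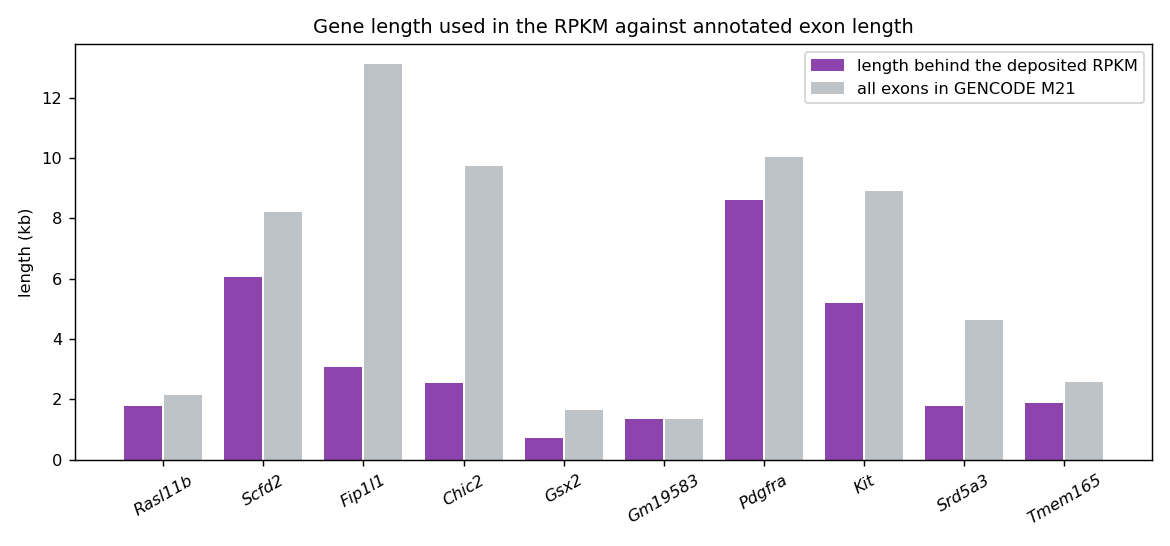
Gene model length behind the RPKM and the total length of annotated exons in GENCODE M21, both in bases, for each of the 10 genes. Gsx2 stands at 737 of 1665 bases, while Gm19583 stands at 1366 of 1366 bases.

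Its closest homologue, Gsx1, which encodes the other homeodomain factor of this family in LGE progenitors, rose in null-labelled libraries. Gsx1 averaged 2.23 ± 0.680 RPKM in null-labelled libraries and 0.994 ± 0.0906 RPKM in WT libraries (SD, n = 4 each). The log2 difference was 0.67 ± 0.14, with a limma adjusted p of 0.00485. On the per-length scale Gsx1 was far below Gsx2 in both genotypes.

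Gm19583, the long intergenic RNA between Gsx2 and Pdgfra, was at 2.06, 2.16, 1.499 and 1.91 RPKM in null-labelled libraries 5, 6, 11 and 12. It was at 0.0334, 0, 0.0314 and 0 RPKM in WT libraries 1, 2, 7 and 8. It was thus counted in each null-labelled library and nearly absent from the reads of each WT library. In reads this is 62, 65, 48 and 56 in the null-labelled libraries, against 1, 0, 1 and 0 in WT. The ratio of reads per library total was 116, with a 95% exact interval of 31.7 to 961 that covers counting error only. Its log2 difference of 1.51 ± 0.09 is held down by the added constant of 1 RPKM: it was 4.11 with a constant of 0.1 and 0.46 with a constant of 5. The length behind its RPKM equals that of its only annotated transcript. Nothing is known here of what this RNA does.

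Pdgfra had the largest difference between genotypes on this scale among the 11395 tested genes. It was at 30.3, 31.2, 36.0 and 39.0 RPKM in null-labelled libraries 5, 6, 11 and 12, against 0.577, 0.522, 0.473 and 0.509 RPKM in WT libraries 1, 2, 7 and 8. Even the lowest null-labelled library was 52.5 times the highest WT library. The means were 34.1 ± 4.13 RPKM in null-labelled libraries and 0.520 ± 0.0430 RPKM in WT libraries (SD, n = 4 each), with a log2 difference of 4.52 ± 0.08. This value too is held down by the added constant: it was 5.78 with a constant of 0.1 and 2.82 with a constant of 5. The reads numbered 5736, 5906, 7264 and 7205 in null-labelled libraries, against 109, 100, 95 and 94 in WT libraries. Per library total this is a ratio of 65.7, with a 95% exact interval of 59.5 to 72.7 for counting error. Among all 12843 listed genes, the median level of Pdgfra stood at percentile 86.7 in null-labelled libraries and at percentile 6.8 in WT libraries.

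Pdgfra and Gsx2 kept a nearly fixed proportion among the null-labelled libraries. Pdgfra divided by Gsx2, both in RPKM, was 0.605, 0.636, 0.625 and 0.608 in null-labelled libraries 5, 6, 11 and 12. It was 0.0261, 0.0244, 0.0182 and 0.0207 in WT libraries 1, 2, 7 and 8. Both genes were higher in libraries 11 and 12 than in 5 and 6, an order that 45.5% of all tested genes had, and their ratio moved little with that. In the same order of null-labelled libraries, Pdgfra divided by Chic2 was 1.554, 1.565, 1.4 and 1.607. Kit divided by Gsx2 was 0.277, 0.268, 0.271 and 0.222. Whether the proportion is particular to Pdgfra and Gsx2 was not tested. Pdgfra made up 17.7% to 19.1% of the summed RPKM of the 10 genes in null-labelled libraries, and 0.425% to 0.5% in WT libraries.

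Markers of other cells known to hold Pdgfra RNA were read in the same libraries. Of 7 markers of oligodendrocyte precursors 4 were in the table, with a summed level of 12.2 to 16.98 RPKM in null-labelled libraries and 24.6 to 28.2 RPKM in WT libraries. Olig1 and Olig2, transcription factors of that lineage, fell by 1.09 and 0.88 on the log2 scale (limma adjusted p = 3.62e-05 and 0.000339), and Lhfpl3 rose by 0.64 (adjusted p = 0.0088). In RPKM, Olig1 was at 0.318 ± 0.0752 in null-labelled libraries and 1.81 ± 0.264 in WT libraries, a ratio of 0.176, and Olig2 at 11.8 ± 2.11 in null-labelled libraries and 22.3 ± 1.72 in WT libraries, a ratio of 0.529 (SD, n = 4 each). Olig2 thus made up most of the summed level in both genotypes. Sox10, Nkx2-2 and Gpr17 were not in the table and were not analysed here. Of 10 markers of meninges and mesenchyme 6 were in the table, with a summed level of 3.69 to 11.6 RPKM in null-labelled libraries and 5.83 to 6.55 RPKM in WT libraries. Of the 4 that were tested 1 passed, Prrx1, a homeobox gene of mesenchyme, which fell by 1.24 (adjusted p = 0.000135). The collagen genes Col1a1, Col1a2 and Col3a1, the other 3 tested, had log2 differences of 0.21, 0.33 and 0.32 (adjusted p = 0.483, 0.345 and 0.234), and the median of the 4 was 0.27. The highest of these sums was in null-labelled library 6. The part of other cell types in the Pdgfra level was not tested further.

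Kit was higher in every null-labelled library than in any WT library, and it varied among the WT libraries. It was at 13.8, 13.1, 15.6 and 14.2 RPKM in null-labelled libraries 5, 6, 11 and 12, against 8.65, 8.12, 4.19 and 7.36 RPKM in WT libraries 1, 2, 7 and 8. The null-labelled libraries lay close together, and WT library 7 was the lowest of all. The means were 14.2 ± 1.05 RPKM in null-labelled libraries and 7.08 ± 2.00 RPKM in WT libraries (SD, n = 4 each), with a log2 difference of 0.95 ± 0.17. Without WT library 7 the difference was 0.75. The T-box gene Eomes, a marker of intermediate progenitors of the pallium, was also lowest in that library, at 2.64 RPKM, against 16.1 to 19.7 RPKM in the other WT libraries and 74.0 to 96.0 RPKM in null-labelled libraries. What sets library 7 apart was not tested. Of 9 markers of mast cells and melanoblasts, 0 were in the table. Of 8 markers of microglia and blood 7 were in it, with a summed level of 83.8 to 112 RPKM in null-labelled libraries and 76.8 to 131 RPKM in WT libraries. Of the 6 tested 0 passed, with 0 at an unadjusted p under 0.05 in limma and 0 past the threshold by voom on the recovered reads. Hbb-bt and Hba-a1, the haemoglobin genes, made up most of this sum.

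Ligands and other receptors of the PDGF, KIT and VEGF families were set beside Pdgfra and Kit. Of 18 genes on this list 14 were in the table and 11 were tested. Of these 3 fell (Kitl, Kdr and Pdgfrb), 0 rose, and the median log2 difference was -0.07, beside 28.5% called and a median of -0.01 over all tested genes. With no library left out, no gene of this list was higher at an unadjusted p under 0.05 in limma or at the threshold by voom on the recovered reads (0 in each). Without library 5, Csf1, which encodes the ligand of the related receptor CSF1R, was past the threshold as higher (adjusted p = 0.049, against 0.17 with all libraries). Kitl, which encodes the ligand of KIT, averaged 6.02 ± 0.232 RPKM in null-labelled libraries and 7.56 ± 0.573 RPKM in WT libraries (log2 difference -0.29 ± 0.06, adjusted p = 0.00559). Pdgfrb, the sister receptor of Pdgfra and a pericyte marker, averaged 2.28 ± 0.253 RPKM in null-labelled libraries and 2.89 ± 0.273 RPKM in WT libraries (-0.24 ± 0.08, adjusted p = 0.0426). The call on Pdgfrb was lost without library 1, 5, 6, 7, 8 or 12 (adjusted p = 0.0852 to 0.107). Pdgfra was at 13.6 to 17.4 times the level of Pdgfrb in null-labelled libraries and at 0.154 to 0.210 times in WT libraries.

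The PDGF ligand genes did not pass the test. Pdgfa averaged 3.66 ± 0.336 RPKM in null-labelled libraries and 3.18 ± 0.232 RPKM in WT libraries (adjusted p = 0.139). Pdgfc averaged 5.08 ± 0.429 RPKM in null-labelled libraries and 4.54 ± 0.245 RPKM in WT libraries (adjusted p = 0.168). Pdgfb was at 2.17 RPKM in null-labelled libraries and 2.16 RPKM in WT libraries (adjusted p = 0.926), and Pdgfd was too low to be tested. Ligand RNA was thus present in both genotypes at a few RPKM.

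Chic2, which encodes a membrane-associated protein with a cysteine-rich hydrophobic domain, was higher in each null-labelled library. Its level was 19.5, 19.9, 25.7 and 24.3 RPKM in null-labelled libraries 5, 6, 11 and 12, against 17.2, 17.2, 17.5 and 17.4 RPKM in WT libraries 1, 2, 7 and 8. The WT libraries were almost equal, and among the null-labelled libraries 11 and 12 stood above 5 and 6. The means were 22.35 ± 3.12 RPKM in null-labelled libraries and 17.3 ± 0.173 RPKM in WT libraries (SD, n = 4 each), with a log2 difference of 0.34 ± 0.08.

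Fip1l1 (chr5:74535449-74598800, plus strand), a subunit of the complex that cleaves and polyadenylates messenger RNA, was lower in each null-labelled library. It was at 24.4, 25.9, 27.8 and 27.6 RPKM in null-labelled libraries 5, 6, 11 and 12, against 30.1, 30.6, 31.15 and 30.4 RPKM in WT libraries 1, 2, 7 and 8. The difference of -0.20 ± 0.05 on the log2 scale was small beside those of Gsx2 and Pdgfra. The 3′ end of Fip1l1 overlaps Lnx1 on the other strand (from chr5:74592447 to chr5:74702912). No source used here says if strand entered the counting, so reads of the 2 genes in the overlap cannot be told apart.

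Of 20 tested genes for other subunits and partners of that polyadenylation machinery, 5 fell, 0 rose, and the median log2 difference was -0.11. This is 25.0% called, beside 28.5% of all tested genes, of which 14.6% were called lower and 13.8% higher. With libraries 7, 8, 11 and 12 alone, 2 fell and 2 rose. Those that fell with all libraries were Cpsf7, Clp1, Cpsf6, Papola and Cpsf4. Papola, the poly(A) polymerase, averaged 64.7 ± 3.04 RPKM in null-labelled libraries and 72.7 ± 1.52 RPKM in WT libraries (-0.17 ± 0.05, adjusted p = 0.023). Differences of the other 4 genes were -0.16 to -0.19, with adjusted p from 0.0147 to 0.0335. With no library left out, 0 of these genes rose at an unadjusted p under 0.05 in limma, and 0 rose by voom on the recovered reads. Calls other than that on Cpsf7 were lost when single libraries were left out. Without library 5, 7 or 8, those on Clp1 (adjusted p = 0.0536 to 0.0575) and Papola (0.0513 to 0.0711) were lost. The call on Cpsf6 was lost without library 2, 5, 7 or 8 (0.0503 to 0.0651), and that on Cpsf4 without library 1, 2, 5, 6, 7 or 11 (0.0569 to 0.0961). With libraries scaled to equal totals, the calls on Cpsf7 (0.0501) and Cpsf4 (0.063) were lost.

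Rasl11b (chr5:74195286-74199481, plus strand), which encodes a small GTPase of the Ras family, was higher in each null-labelled library. It was at 4.24, 3.83, 4.59 and 4.80 RPKM in null-labelled libraries 5, 6, 11 and 12, against 3.50, 2.24, 1.92 and 3.08 RPKM in WT libraries 1, 2, 7 and 8. The gap between the lowest null-labelled and the highest WT library was small beside the spread of the WT libraries. The log2 difference was 0.56 ± 0.13, from 686 reads over null-labelled libraries and 420 reads over WT libraries.

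Scfd2 (chr5:74204816-74531759, minus strand) encodes a member of the Sec1 family of vesicle traffic proteins. Its 3′ end lies 5.3 kb past Rasl11b, and its start lies 3.7 kb before Fip1l1. Scfd2 did not share the difference of Rasl11b. It was at 1.78, 1.96, 1.99 and 1.70 RPKM in null-labelled libraries 5, 6, 11 and 12, against 2.07, 2.12, 1.99 and 2.03 RPKM in WT libraries 1, 2, 7 and 8. The genotypes overlapped at the level of null-labelled library 11 and WT library 7, and the log2 difference was -0.10 ± 0.06. Of 13 tested partners in vesicle tethering, Use1 rose and Zw10 fell, and the median was 0.00. This is 15.4% called, beside 28.5% of all tested genes. Use1 was at 23.9 ± 2.06 RPKM in null-labelled libraries and 20.4 ± 1.44 RPKM in WT libraries (adjusted p = 0.0427), and Zw10 at 16.1 ± 1.12 RPKM in null-labelled libraries and 19.0 ± 1.30 RPKM in WT libraries (adjusted p = 0.0227). Both calls were lost in several fits that left out a library: without 2, 5, 7, 8, 11 or 12 for Use1 (0.0683 to 0.112), and without 1, 5 or 6 for Zw10 (0.0538 to 0.0607).

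Homologues of the 10 genes elsewhere in the genome moved in both directions. Of 11 tested, 2 rose, Gsx1 among them, 3 fell (Rasl10b, Rasl11a and Pdgfrb), and the median was -0.02. This is 45.45% called, beside 28.5% of all tested genes. Rasl10b averaged 10.8 ± 1.18 RPKM in null-labelled libraries and 14.6 ± 1.02 RPKM in WT libraries (-0.42 ± 0.08, adjusted p = 0.00301). Its relative Rasl11b, described above, was higher in null-labelled libraries. Rasl11a averaged 1.70 ± 0.265 RPKM in null-labelled libraries and 2.33 ± 0.186 RPKM in WT libraries (adjusted p = 0.0223), and its call was lost without library 1, 5 or 6 (0.0583 to 0.0624).

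Srd5a3 (chr5:76140271-76155504) and Tmem165 (chr5:76183880-76209245), both on the plus strand, lie farthest from Gsx2 among the 10 and both serve protein glycosylation. Srd5a3, a reductase that makes dolichol, was at 2.95, 3.24, 3.45 and 2.90 RPKM in null-labelled libraries 5, 6, 11 and 12. It was at 3.71, 2.82, 3.15 and 3.34 RPKM in WT libraries 1, 2, 7 and 8, so the genotypes overlapped (log2 difference -0.04 ± 0.08). Tmem165, a Golgi membrane protein of manganese balance, was at 21.8, 20.9, 23.0 and 23.9 RPKM in null-labelled libraries, against 27.4, 24.05, 24.8 and 23.2 RPKM in WT libraries, given in the same order. Null-labelled library 12 was above WT library 8, and the log2 difference was -0.14 ± 0.06.

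Of 30 tested partners of these genes in dolichol and Golgi glycosylation 1 rose, 3 fell, and the median was -0.01. This is 13.3% called, beside 28.5% of all tested genes. B4galt1, a Golgi galactosyltransferase, averaged 2.81 ± 0.377 RPKM in null-labelled libraries and 3.77 ± 0.201 RPKM in WT libraries (adjusted p = 0.0107). Alg2, a mannosyltransferase, averaged 40.2 ± 2.64 RPKM in null-labelled libraries and 34.5 ± 2.29 RPKM in WT libraries (adjusted p = 0.0259). Slc39a8, a metal ion transporter, had an adjusted p of 0.0302 (log2 difference -0.24), and Alg6, a glucosyltransferase, one of 0.0335 (-0.19). Calls were lost without library 2, 7, 8, 11 or 12 for Alg2 (0.0614 to 0.0759), and without 2, 5, 6, 7 or 12 for Slc39a8 (0.0552 to 0.0835). For Alg6 the call was lost without any single library other than 8 (0.0503 to 0.0898) and under both rescalings (0.0761 with equal totals, 0.051 with median ratios).

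Genes around the 10 were taken by position alone, as all other listed genes with a lower coordinate within 2 Mb of that of Gsx2. There were 16, all tested, of which 3 rose and 4 fell, with a median log2 difference of -0.09. This is 43.8% called, beside 26.1% of 732 tested genes of chromosome 5 and 28.5% of all tested genes. Ociad2, which encodes a mitochondrial protein with an OCIA domain, rose most, with 2.80 ± 0.254 RPKM in null-labelled libraries and 1.33 ± 0.178 RPKM in WT libraries (0.71 ± 0.08, adjusted p = 0.00022). C530008M17Rik and Aasdh, an acyl-CoA synthetase family member, rose by 0.18 and 0.26 (adjusted p = 0.0373 and 0.023). Both calls depended on single libraries, and were lost without 1, 2, 5, 6, 11 or 12 for C530008M17Rik (0.0518 to 0.0956) and without 5 or 7 for Aasdh (0.0552 to 0.0655).

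The 4 that fell lie beyond Kit. Kdr, the VEGF receptor of endothelial cells, averaged 5.37 ± 0.343 RPKM in null-labelled libraries and 6.40 ± 0.238 RPKM in WT libraries (-0.22 ± 0.06, adjusted p = 0.0157). Cep135, a centriole protein, averaged 6.31 ± 0.319 RPKM in null-labelled libraries and 8.51 ± 0.557 RPKM in WT libraries (-0.38 ± 0.06, adjusted p = 0.00111). Ppat and Paics, which encode enzymes of purine synthesis, fell by 0.41 and 0.34 (adjusted p = 0.00115 and 0.00518). Of 10 pericyte and endothelial markers 9 were tested and 4 were called, all lower: Kdr, Cdh5 (-0.30), Tek (-0.29) and Pdgfrb. The endothelial genes Pecam1, Cldn5 and Flt1 had -0.18, -0.23 and -0.07 and were not called (limma adjusted p = 0.166, 0.301 and 0.512). The summed level of the 10 markers was 28.3 to 38.5 RPKM in null-labelled libraries and 35.9 to 41.3 RPKM in WT libraries. The part of cell makeup in the Kdr level was not tested.

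By distance, the listed genes nearest Gsx2 were all among the 10. With distance taken between lower coordinates, there were 5 listed genes within 0.5 Mb, Chic2, Gsx2, Gm19583, Pdgfra and Kit. In each of them the null-labelled libraries were all above the WT libraries, beside 14.5% of all tested genes. All 5 are among the 10 genes named with this difference known, and 0 other listed genes lie in this window. Nothing about distance is read from this count. By the gap between gene ends, Fip1l1, which was lower, is at 476.8 kb and thus nearer to Gsx2 than Kit is, at 497.0 kb. Within 1 Mb there were 3 listed genes outside the 10, of which Kdr fell and the other two did not pass. Within 5 Mb 28 such genes were tested, of which 6 rose and 6 fell. Within 2 Mb the annotation holds 101 genes, 32 of them protein-coding, and 23 of these were listed; the others were not analysed here.

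**Figure D3:**
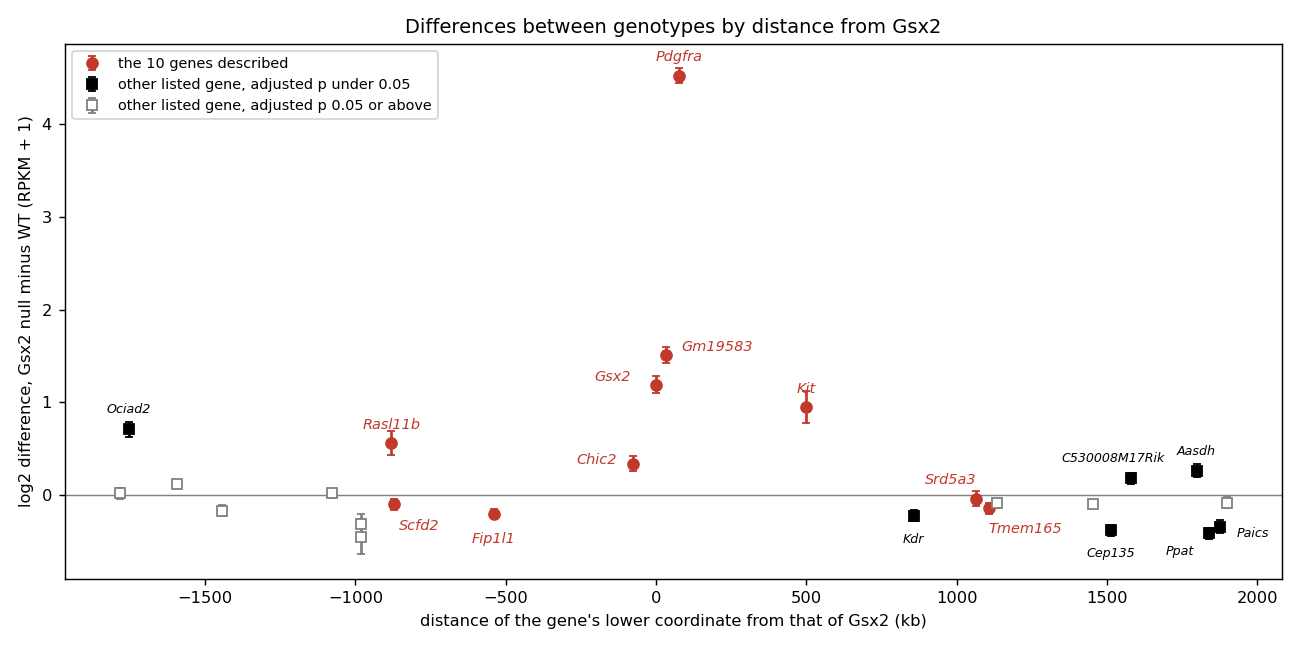
Difference between null-labelled and WT libraries in log2(RPKM + 1), with SE bars, against the distance in kb of each gene's lower coordinate from that of Gsx2, for the 10 genes and the 16 other listed genes within 2 Mb. Pdgfra stands at 4.52, Gm19583 at 1.51, Gsx2 at 1.19 and Kit at 0.95, and the called ones of the other 16 genes lie between -0.41 (Ppat) and 0.71 (Ociad2).

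The order of the 10 genes by RPKM differed between genotypes. In null-labelled libraries it ran Gsx2, Pdgfra, Fip1l1, Tmem165, Chic2, Kit, Rasl11b, Srd5a3, Gm19583 and Scfd2. Of genes next to each other in that order, the ranges of Tmem165 and Chic2 overlapped, as did those of Gm19583 and Scfd2. The range of Chic2, up to 25.7 RPKM, also overlapped that of Fip1l1, from 24.4 RPKM. In WT libraries it ran Fip1l1, Tmem165, Gsx2, Chic2, Kit, Srd5a3, Rasl11b, Scfd2, Pdgfra and Gm19583. There Tmem165 overlapped with Gsx2, and Rasl11b with both Srd5a3 and Scfd2. The place of Gsx2 rests on the length of 737 bp behind its RPKM. The 10 genes summed to 171 to 205 RPKM in null-labelled libraries and 109 to 115 RPKM in WT libraries.

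Libraries with column numbers 11 and 12 stood apart from 5 and 6 in several of the 10 genes. Both were above 5 and 6 in 7 of the 10 genes, where 45.5% of all tested genes had this order, and both were below in Gm19583 alone (13.9% of all tested genes). Among WT libraries, 7 and 8 were both above 1 and 2 in 2 of the 10 genes (13.1% of all tested genes) and both below in 3 (30.1%). What the column numbers stand for is in no label. The difference between genotypes was therefore also computed within each set of 4 libraries. Null-labelled 11 and 12 against WT 7 and 8 gave 0.49 ± 0.05 for Chic2, 1.27 ± 0.21 for Kit and 0.72 ± 0.16 for Rasl11b. Null-labelled 5 and 6 against WT 1 and 2 gave 0.19 ± 0.06, 0.63 ± 0.07 and 0.40 ± 0.16 for the same 3 genes. That all 3 genes were higher in null-labelled libraries in both sets follows from their lack of overlap between genotypes and adds nothing to it. For Gsx2 the values were 1.23 ± 0.06 in the first set and 1.15 ± 0.06 in the second, for Pdgfra 4.69 ± 0.07 and 4.36 ± 0.07, and for Gm19583 1.41 ± 0.14 and 1.61 ± 0.13. Fip1l1 was lower in both sets, with -0.15 ± 0.04 and -0.26 ± 0.06. The direction in Gsx2, Pdgfra, Gm19583 and Fip1l1 likewise follows from the lack of overlap. Tmem165 had -0.03 ± 0.05 in the first set and -0.26 ± 0.08 in the second, where null-labelled 5 and 6 were both below WT 1 and 2. Whether the sets themselves differ was not tested.

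**Figure D4:**
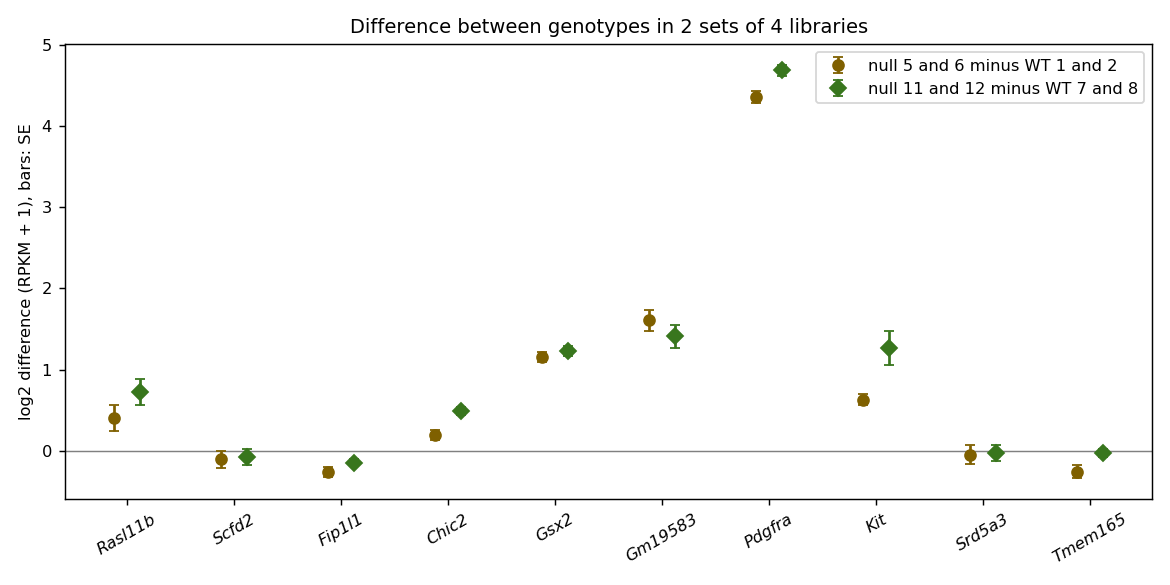
Difference in log2(RPKM + 1), null-labelled minus WT, with SE bars, for each of the 10 genes in null-labelled libraries 5 and 6 against WT 1 and 2, and in null-labelled 11 and 12 against WT 7 and 8. Chic2 stands at 0.19 and 0.49 and Kit at 0.63 and 1.27, while Gsx2 stands at 1.15 and 1.23.

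Genes with profiles most like those of the 4 members with the largest differences were sought among 10892 named genes. Each profile was log2(RPKM + 1) in the 8 libraries, centred on its own WT mean, and likeness was the root mean square (RMS) gap between profiles. Closest to Gsx2 were Tox, Kcnk2, Cpa4, St8sia1 and Pam, at RMS gaps of 0.14 to 0.18. Tox, an HMG-box factor on chromosome 4, averaged 35.8 ± 2.39 RPKM in null-labelled libraries and 15.1 ± 0.564 RPKM in WT libraries. Closest to Gm19583 were Plcxd2, Emx2, Ppp1r17, Slc44a5 and Klhl35, at 0.18 to 0.23. These matches depend on the added constant of 1 RPKM, which holds down the difference of Gm19583: its RPKM means had a ratio of 118. Emx2, a homeobox gene of the dorsal telencephalon, averaged 32.9 ± 2.50 RPKM in null-labelled libraries and 12.6 ± 2.05 RPKM in WT libraries. Nearest to Pdgfra, at the wider gaps of 0.74 to 1.46, were Dbx1, Neurog1, Uncx, Lhx9 and Eomes, all transcription factor genes. The matches of Pdgfra, the tested gene with the largest difference, depend on the added constant as well. Dbx1, a homeobox gene known from ventral pallium progenitors, averaged 15.4 ± 3.42 RPKM in null-labelled libraries and 0.415 ± 0.432 RPKM in WT libraries. Closest to Kit were Id2, Lrfn5, Sncb, C1ql3 and Nxph3, at 0.06 to 0.10. Id2, an inhibitor of helix-loop-helix factors, averaged 34.3 ± 3.92 RPKM in null-labelled libraries and 17.9 ± 4.47 RPKM in WT libraries. None of these 20 genes is within 2 Mb of Gsx2, and only Uncx is on chromosome 5. The genes described here, Gsx2 and its named neighbours, were not themselves candidates. The other listed genes within 2 Mb had differences from -0.45 (Snora26) to 0.71 (Ociad2). Those of the 4 profiles ran from 0.95 (Kit) to 4.52 (Pdgfra), so a close match nearby was not possible. Nothing about distance is read from the lack of one.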

How the data were processed

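RNA-seq of LGE from 4 null-labelled and 4 WT samples was used. Per the labels' protocols, poly(A) RNA gave strand-marked (dUTP) libraries with 9 PCR cycles, read from a single end over 51 bases. Per the submitters' processing notes the authors used STAR, featureCounts and edgeR with mm10; no source used here gives versions, annotation or strand setting. Per the file headers the deposited table holds RPKM per library, a log2 fold change, an average log2 CPM, and for each gene a p-value and FDR. The authors' log2 fold change was checked for direction over 1782 genes (100% had the sign of the RPKM) and is not quoted. Column names give the genotype (WT or Germline) and a number found in no label; 0 columns were left out. Germline was read as null from the series title. Read counts had been foreseen in the design; as RPKM were deposited, they were tested on the log2 scale.

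log2(RPKM + 1) was fitted with limma 3.58.1 (R 4.3.3) with genotype as the only term and an intensity trend, two-sided, with Benjamini-Hochberg adjustment over 11395 genes whose mean reached 1 RPKM in one genotype or both (1448 were not tested). The threshold was 0.05, and every adjusted p is from this fit unless another setting is named. The script recovered all changed genes of a simulated table. Those changes were at least 1 in size on the log2 scale and were set in genes well above the filter. The recovery of smaller differences, such as most of those called in neighbours and lists, was not checked. Whole reads were recovered for 100% of genes at a tolerance of 1e-06 of a read (for 44 a common factor was restored with the authors' average log2 CPM), 16031458 to 18019214 reads per library. Their intervals cover counting error only. Gene model lengths were whole numbers within 0.01 base for 99.96% of genes.

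Coordinates come from GENCODE M21; 12593 of 12843 genes were matched to it. The 10 genes, and all lists, were chosen with earlier results of these data known. Named are the 10 genes, Gsx1, neighbours and list genes past the threshold (for lists of more than 6, those with the smallest adjusted p), and the 5 nearest profiles of 4 genes; others were chosen after their values were seen. Some list genes are not reported here by name. Alternatives were another pseudocount, filter, scaling, empirical Bayes step or window, voom on recovered reads, leaving out each library, each set of 4 libraries alone, and the set as a second term.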

Additional observations from a re-analysis of the deposited data

Results flagged for a closer look

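In 8 of 136 groups of 4 libraries looked at, over 68 named genes, 1 library lay far from the other 3 by Dixon's criterion for 4 values. Chance gives about 1 in 20 such groups. None of the 8 was a value of the 10 genes themselves.

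Among null-labelled libraries, Kdr was at 4.86 RPKM in library 5, against 5.48 to 5.61 RPKM in the others. Prrx1 was at 0.843 RPKM in library 6, against 0.301 to 0.354 RPKM in the others, the library with the highest sum of mesenchymal markers. Library 11 was high for Tek, at 1.26 RPKM against 0.937 to 0.967 RPKM, and for Id2, at 40.2 RPKM against 31.8 to 32.8 RPKM.

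Among WT libraries, Papola was at 74.97 RPKM in library 7, against 71.8 to 72.2 RPKM. Library 8 was low for Alg6, at 3.53 RPKM against 3.91 to 3.98 RPKM, and for Gad1, at 27.1 RPKM against 29.96 to 30.4 RPKM. St8sia1 was at 7.41 RPKM in library 1, against 9.29 to 9.60 RPKM.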

How the results depend on the processing

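No paired analysis was possible because the columns do not carry the replicate numbers of the sample titles. With the 2 sets of libraries by column number as a second term, chosen after seeing the data, 3578 genes passed, among them 8 neighbours within 2 Mb, and no named gene lost its call. Over every setting other than the main fit, the second term included, the 10 genes had 186 log2 differences. Of these, 170 stayed within 1 SD, 16 moved and 0 reversed. The filters, the robust empirical Bayes step and the second term leave a gene's log2 difference unchanged by construction. Calls on other named genes kept their side of the threshold in 989 of 1084 values, 94 were no longer past it, and 1 reversed: Hba-a1 gave 0.07 without library 7, the highest of -0.21 to 0.07 without 1 library. All genes past the threshold numbered 3242, 1949 with libraries 1, 2, 5 and 6 alone, and 2471 to 2954 without 1 library. Of the neighbours within 2 Mb 7 passed, 4 with libraries 7, 8, 11 and 12 alone and 5 to 8 without 1 library; with the 10 genes kept in it was 14, and windows of 0.5, 1 and 5 Mb gave 0, 1 and 12.

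With libraries 1, 2, 5 and 6 alone, 0 PDGF and KIT genes passed (3 with all libraries), 3 homologues (5), 0 polyadenylation genes (5), 2 glycosylation genes (4) and 1 tethering gene (2). With libraries 7, 8, 11 and 12 alone, the counts were 1 for PDGF and KIT genes, 3 for homologues and 2 for glycosylation genes. These sets hold fewer samples. A mean RPKM filter of 5 left 2 homologues and 1 glycosylation gene, as fewer genes were tested, and equal totals left 3 polyadenylation genes (the cause was not tested). Leaving out 1 library gave 2 to 4 PDGF and KIT genes, 3 to 5 homologues, 1 to 5 polyadenylation genes, 1 to 4 glycosylation genes and 0 to 1 tethering gene. The 2 reads of Gm19583 over the WT libraries limit the precision of its ratio.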
